A study of Mus musculus with 8 samples.

Results

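Msx1 and Msx2 are the 2 msh-type homeobox genes examined here, and they were found as the rows of the count table whose gene symbol equals either name. Each name matched 1 row, so the members are 2 of 19884 genes in the table. Libraries came from wild-type C57BL/6J females aged 6 to 10 weeks that had been mated with fertile males and were killed on gestation day 4, counting the day of the vaginal plug as day 1. Whole maternal brain (n = 4) and whole uterus (n = 4) were sequenced as total RNA depleted of ribosomal RNA, with no treatment in either group and 1 deposited column per library. All animals were pregnant, with blastocysts found in the uterine flush, so neither organ has a non-pregnant, earlier or later counterpart here. The growth protocol names 4 mice for each organ but does not state whether a brain and a uterus with the same number came from 1 mouse.

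MSX1 and MSX2 are DNA-binding homeodomain proteins that act mostly as transcriptional repressors and are classic targets of BMP signalling in developing limbs, teeth and skull. In the mouse uterus Msx1 is known as a gene of the luminal and glandular epithelium that is expressed for a short time before the embryo attaches and declines as LIF signalling sets in. Mice that lack both genes in the uterus are known to fail in implantation, with altered Wnt5a and epithelial polarity. In the brain, Msx genes are best known from the dorsal midline of the embryonic neural tube.

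Msx1 (ENSMUSG00000048450) lies on the minus strand at chr5:37820485-37824583 and Msx2 (ENSMUSG00000021469) on the minus strand at chr13:53466884-53473074, in GENCODE M21 coordinates on GRCm38. Each main transcript has 2 exons, and no other annotated gene overlaps either locus. The likeness of the paralogs bears on whether reads can be told apart. The longest run shared by the 2 main transcripts was 22 bases, and no run of 25 bases was shared. Annotated exon bases outside the main transcripts were not compared.

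The promoters were read from RefSeq on GRCm38.p6, and both genes matched. The 250 bases upstream of the Msx1 start (chr5:37824586-37824835, minus strand) are shown 5′ to 3′ because the organs differ most in this member. Capitals mark a GC box on the opposite strand, the only complete match in these bases to the 6 motifs searched.
Msx1 upstream: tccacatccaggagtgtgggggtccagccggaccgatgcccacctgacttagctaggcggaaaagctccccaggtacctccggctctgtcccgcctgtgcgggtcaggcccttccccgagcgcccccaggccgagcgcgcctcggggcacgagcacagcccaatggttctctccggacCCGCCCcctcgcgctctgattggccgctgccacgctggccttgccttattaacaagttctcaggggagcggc
The motifs, searched on both strands, were TAATTG (a core bound by MSX homeodomains), GGGCGG (a GC box), GCCGNCGC (a GC-rich element of BMP Smads), TGTTCT (part of a steroid receptor element), TTCNNNGAA (STAT) and CTTTGAT (TCF/LEF). GGGCGG and GCCGNCGC each matched 1 time in the 300-base window of Msx1 and 1 time in that of Msx2. The other motifs matched neither window, which says only that these letters are not there. Of 32851 mouse promoter windows of the same length, 35.7% held GGGCGG and 9.76% held GCCGNCGC. The matches to GCCGNCGC are shown within 30 bases each, with the match in capitals. The Msx1 match reads on the opposite strand and lies at the start site (window chr5:37824572-37824601), while the Msx2 match lies upstream (window chr13:53472849-53472878).
Msx1 GC-rich element: ttctcaggggaGCGGCGGCggacccggagc
Msx2 GC-rich element: tcaggagcaggGCCGTCGCcagttggttga
The window of Msx1 was richer in G and C than 90.4% of all windows and that of Msx2 richer than 73.1%. The Msx2 start differs between annotations, with the GENCODE start 294 bases upstream of the RefSeq start, so the RefSeq window of Msx2 lies within a GENCODE exon and is not printed whole.

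Library totals ran from 40115616 to 47790178 counts in brain and from 35394603 to 40254254 in uterus, and no 2 libraries held identical counts. Levels are given as CPM, which is the count scaled to a common library size after TMM adjustment. A log2 fold change, printed with its SE, is positive where uterus was higher. Of 16074 genes tested, 87.0% differed between the organs in edgeR's quasi-likelihood test at an adjusted p under 0.05, with 43.5% of them called toward uterus and 43.6% toward brain. A call alone is therefore common in this comparison. All 7 markers of uterine epithelium were called higher in uterus, with summed levels of 711.5 to 881 CPM against 6.57 to 9.82 in brain, and all 7 neuronal markers were higher in brain, at 6195 to 6408 CPM against 2.24 to 5.34. The uterus also held stroma (2393 to 3215 CPM) and smooth muscle (6204 to 7512 CPM). Gland markers spread from 266 to 1331 CPM among the uteri, with library 2 highest and library 4 lowest. That order was set by Spink1, Prss28 and Prss29, with Prss29 at 559 CPM in library 2 and 2.28 in library 4, while Sox17 and Cxcl15 were highest in library 4, at 189 and 27.6 CPM. In whole organs, fewer cells of a type and less RNA per cell cannot be told apart.

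Msx1 was strongly higher in uterus. The uterus libraries 1 to 4 held 80.2, 74.4, 92.9 and 106 CPM. The brain libraries 1 to 4 held 4.40, 4.68, 5.75 and 5.39 CPM. Every uterus library lay above every brain library, as was the case for 42.0% of tested genes in that direction. The mean was 88.3 ± 13.9 CPM in uterus and 5.06 ± 0.624 CPM in brain (SD, n = 4 each). The log2 fold change was 4.12 ± 0.14 (edgeR's quasi-likelihood test, adjusted p = 7.8e-10), or 17.4-fold, and 5.39% of tested genes were called with a rise toward uterus at least that large. The smallest Msx1 count in any library was 163, so brain expression was measured rather than near the limit of 3 counts, which corresponds to 0.0692 to 0.0810 CPM.

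Msx2 was scarce in both organs and was not called. The uterus libraries 1 to 4 held 1.03, 1.65, 2.43 and 3.10 CPM, from 41, 70, 96 and 133 counts. The brain libraries 1 to 4 held 1.19, 1.34, 1.09 and 1.94 CPM, from 44, 58, 47 and 82 counts. Uterus library 1 was the lowest of all 8 libraries and uterus library 4 the highest, so the organs overlapped. The means were 2.05 ± 0.904 CPM in uterus and 1.39 ± 0.382 CPM in brain (SD, n = 4 each), with a log2 fold change of 0.56 ± 0.34 (edgeR's quasi-likelihood test, adjusted p = 0.144). The limma-voom estimate was 0.49 with a 95% interval from -0.31 to 1.28, which leaves room for a rise of more than 2-fold. Msx2 passed the test without uterus library 1 (0.80, adjusted p = 0.0268), with upper-quartile scaling (0.82, adjusted p = 0.0428) and with library sizes alone (0.82, adjusted p = 0.0428), while without uterus library 4 the value was 0.31 (edgeR, adjusted p = 0.384). These scalings move the median of all tested genes from 0.012 to 0.27.

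**Figure D1:**
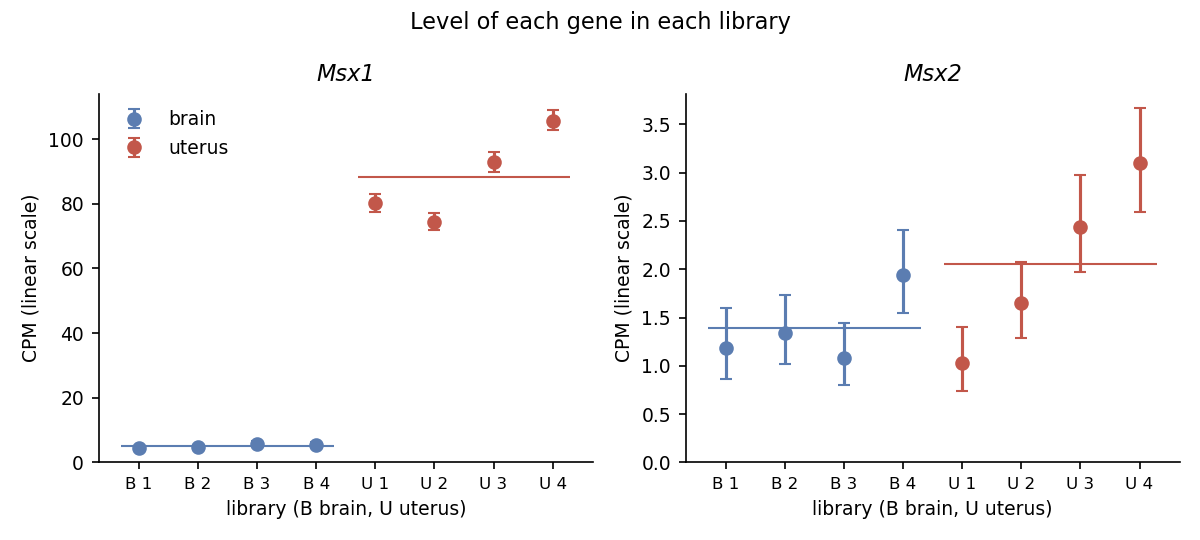
Level of Msx1 (left) and Msx2 (right) in CPM on linear axes from 0, for the 4 brain (B, blue) and 4 uterus (U, red) libraries; bars are exact Poisson 95% intervals, which cover counting error only, and lines are group means. Msx1 lies at 74.4 to 106 CPM in uterus against 4.40 to 5.75 in brain, while Msx2 overlaps, at 1.03 to 3.10 against 1.09 to 1.94.

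The ratio of the 2 genes compares them within each library, without scaling between libraries. Msx1 counts divided by Msx2 counts gave 76.8, 44.9, 38 and 34.0 in uterus libraries 1 to 4. The same ratio was 3.67, 3.48, 5.25 and 2.77 in brain libraries 1 to 4. The lowest uterine ratio was above the highest brain ratio. On the log2 scale the ratio was 5.52 ± 0.52 in uterus and 1.88 ± 0.38 in brain (SD, n = 4 each), a difference of 3.64, or 12.4-fold (two-sided exact permutation test, p = 0.0286, the smallest that 4 against 4 libraries can give). The call ended with the replicate number as a block (3.64, exact sign-flip permutation p = 0.125) and with uterus libraries 1 and 3 only (3.87, exact permutation p = 0.0667), each p being the smallest that its design allows.

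Counts per kilobase of exon allow the paralogs to be compared with each other, with annotated exon lengths of 3097 bases for Msx1 and 3279 for Msx2. On that scale Msx1 stood above Msx2 by 5.60 ± 0.52 log2 units in uterus, or 48.6-fold, and by 1.97 ± 0.38 in brain, or 3.91-fold (SD, n = 4 each). Msx1 was the higher gene in all 8 libraries. An exact sign-flip permutation test gave p = 0.125 in each organ, which is the smallest that 4 libraries allow. Both exon lengths exceed those of the main transcripts, which are 1935 bases for Msx1 and 2453 for Msx2. With coding lengths the uterine difference was 5.34.

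**Figure D2:**
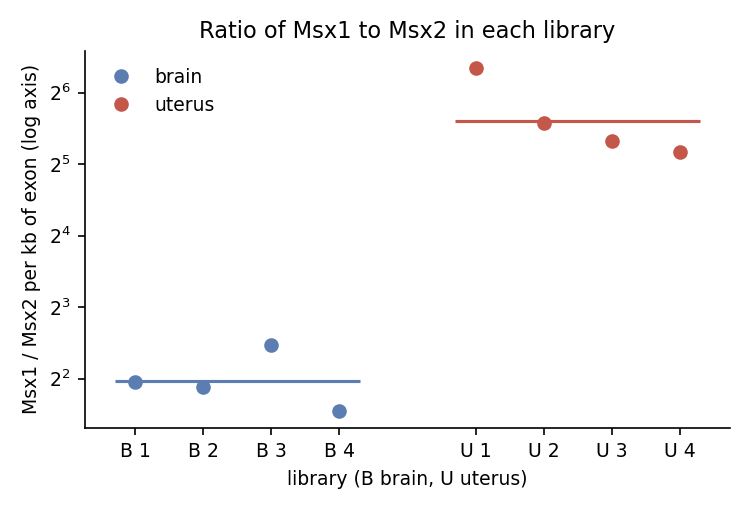
Ratio of Msx1 to Msx2 per kilobase of exon in each brain (B) and uterus (U) library, on a log axis; lines are the means of the log2 ratios. Uterus ratios lie around 48.6 and brain ratios around 3.91, and the groups do not overlap.

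The members varied differently among the uteri. The highest uterus library held 1.42 times the Msx1 level of the lowest, against 3.0 times for Msx2. The coefficient of variation in uterus was 15.8% for Msx1, where counting error alone gives 1.66%, and 44.0% for Msx2, where it gives 10.8%. In brain it was 12.3% for Msx1 and 27.5% for Msx2, where counting error alone gives 6.89% and 13.2%. On the log2 scale the SD in uterus was 0.23 for Msx1 and 0.67 for Msx2, against a median of 0.14 over all tested genes.

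Uterus library 4 was the highest for each member, and its epithelial markers were also the highest. The summed level of the 7 epithelial markers was 711.5, 750.5, 766 and 881 CPM in uterus libraries 1 to 4, the same order as for Msx2. Per 100 CPM of these markers, Msx1 stood at 11.3, 9.91, 12.1 and 12.0 CPM. Msx2 stood at 0.145, 0.219, 0.318 and 0.352 CPM on the same scale. The spread of Msx1 between the highest and lowest uterus was 1.22-fold on this scale, and that of Msx2 was 2.43-fold. The part of epithelial content in these differences was not tested. In brain, the markers of choroid plexus and ependyma summed to 695 to 970 CPM, of which Ttr alone held 613 to 863. Those of the meninges summed to 64.8 to 68.9 CPM in brain but to 557 to 760 in uterus. Of these 7 markers, 3 were called toward uterus and 4 toward brain, so the list is not specific to meninges here. The part of these tissues in the brain level of either gene was not tested. Pituitary markers in brain summed to 3.29 to 6.69 CPM. The 7 markers of the preimplantation embryo summed to 0.735 to 1.93 CPM in uterus and 1.21 to 2.08 CPM in brain. Of these, Cdx2, Pou5f1 and Zfp42 had 0 counts in all 4 uteri, and Elf5 was the most abundant in uterus, at 0.634 to 1.72 CPM.

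Per kilobase of exon, Msx1 ranked high among uterine genes and Msx2 low. In uterus Msx1 stood at 28.5 ± 4.50 CPM per kilobase, above 90.6% of tested genes, and Msx2 at 0.626 ± 0.276, above 19.5% (SD, n = 4). In brain Msx1 stood at 1.63 ± 0.202 CPM per kilobase, above 28% of tested genes, and Msx2 at 0.423 ± 0.117, above 13.7%. Of 120 tested genes with the word homeobox in their description, 47 were called toward uterus and 61 toward brain, against 43.5% and 43.6% of all tested genes. Among these 120, Msx1 ranked 5 in uterus, behind Hoxa10, Hoxa11, Hoxd10 and Hoxd9, the posterior HOX genes that pattern the reproductive tract. In brain Msx1 ranked 43. Msx2 ranked 60 in uterus and 70 in brain.

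**Figure D3:**
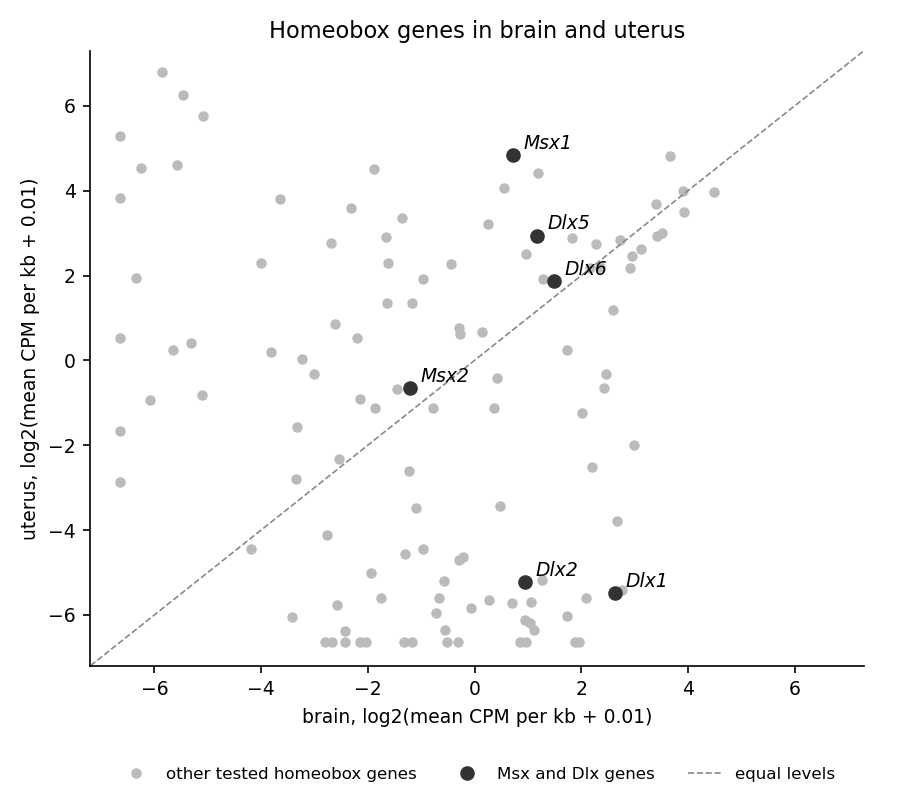
Mean level per kilobase of exon of 120 tested homeobox genes in brain (x axis) and uterus (y axis), each as log2 of CPM per kilobase plus 0.01; black points are the tested Msx and Dlx genes and the dashed line marks equal levels. Msx1 lies well above the line, at 28.5 CPM per kilobase in uterus, and Msx2 lies near it at 0.626.

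The closest relatives in the same homeobox class are Msx3 and the Dlx genes, which specify forebrain interneurons, the jaw and other epithelial and skeletal structures. Of 9 genes in this family, 6 passed the filter on low counts, and of these 2 (Msx1 and Dlx5) were called higher in uterus, 2 (Dlx1 and Dlx2) higher in brain and 2 (Msx2 and Dlx6) did not pass. Among all tested genes, 43.5% were called toward uterus and 43.6% toward brain. The median log2 fold change of the 6 was 0.47, against 0.012 over all tested genes. Msx3, a gene of the embryonic dorsal spinal cord, was left out by that filter, with 0 counts in uterus and 12 in brain. Brain library 4 also had 0 counts. Against a limit of 3 counts over the 4 uteri, the brain level was 3.97-fold higher, which does not allow for the counting error of 12 counts.

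Dlx5 held 12.6, 14.9, 15.8 and 26.0 CPM in uterus libraries 1 to 4, and its mean was 17.3 ± 5.91 CPM against 5.05 ± 0.628 in brain, a log2 fold change of 1.78 ± 0.22 (edgeR, adjusted p = 2.4e-05). Dlx6, its neighbour on chromosome 6, held 6.59, 7.41, 8.52 and 11.9 CPM in the uteri, and 8.61 ± 2.35 CPM against 6.65 ± 0.854 in brain (0.37 ± 0.19, edgeR adjusted p = 0.0842). These 2 genes and Msx2 had the same order of uterus libraries, with library 1 lowest and library 4 highest. Without uterus library 1, Dlx6 passed as well (0.50, edgeR adjusted p = 0.0289), as it did under upper-quartile or library-size scaling (0.63 in each), and without uterus library 4 its value was 0.19. Dlx1 and Dlx2, factors of forebrain interneurons, stood at 33.4 ± 6.86 and 5.47 ± 1.04 CPM in brain, with 11 and 8 counts in all 4 uteri together. Per kilobase, the family order in uterus was Msx1 at 28.5, Dlx5 at 7.66 ± 2.61, Dlx6 at 3.63 ± 0.989 and Msx2 at 0.626 CPM, and the ranges of the first 4 did not overlap one another. In brain the order was Dlx1 at 6.20 ± 1.27, Dlx6 at 2.80 ± 0.360, Dlx5 at 2.23 ± 0.278, Dlx2 at 1.91 ± 0.365, Msx1 at 1.63 and Msx2 at 0.423. The ranges of Dlx6 and Dlx5, of Dlx5 and Dlx2, and of Dlx2 and Msx1 overlapped, while Dlx1 lay above all of them and Msx2 below. Antisense genes overlap Dlx1, Dlx4 and Dlx6 in the annotation, and since the strand setting of the counting is not given in the sources used here, their reads cannot be told apart.

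The nearest genes of the table on each chromosome were called in different directions. Stx18, a membrane fusion gene 214159 bases from Msx1 at higher coordinates, was higher in uterus (2.40 ± 0.20), with 90.6, 110.1, 90.9 and 174 CPM in uterus libraries 1 to 4. Stk32b, a kinase gene 103314 bases from Msx1 at lower coordinates, and Nsg1, a neuronal endosome gene 312609 bases away at higher coordinates, were higher in brain (-3.27 ± 0.21 and -3.14 ± 0.05). Cytl1, between Stk32b and Msx1, held 0.522 CPM in uterus and 0.691 in brain and did not pass. Ror2, which encodes a receptor of Wnt5a, lies 180760 bases from Msx2 at lower coordinates and was higher in uterus (5.0 ± 0.19). Drd1, the dopamine receptor gene on the other side of Msx2, was higher in brain (-6.72 ± 0.21). Sptlc1, an enzyme gene of sphingolipid synthesis, was higher in uterus by 0.32 ± 0.06, and the pseudogene Gm5449 had 6 counts in all 8 libraries.

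BMPs are the best known inducers of Msx genes. Of 13 tested BMP ligands, receptors and Smads, 7 were called higher in uterus and 6 higher in brain, with a median of 0.54, where 87.0% of all genes were called in either direction. The ligand gene Bmp7 stood at 44.5 ± 3.62 CPM in uterus against 11.7 ± 0.766 (1.93 ± 0.08), Bmp4 at 9.54 ± 1.99 against 3.68 ± 0.317 (1.37 ± 0.16) and Bmp2, a ligand of the implantation site, at 8.30 ± 1.14 against 4.6 ± 0.344 (0.85 ± 0.13). Bmp5 and Bmp6 were higher in brain, by -2.48 ± 0.66 and -1.85 ± 0.17. Uterus library 4 held 1.26 CPM of Bmp5 against 0.047 to 0.629 in the others, with library 2 lowest. The Bmp5 value was -3.42 without uterus library 4 and -2.09 without uterus library 2. With limma-voom it was -3.31. Receptors and signal carriers were split by paralog. Bmpr1a was higher in uterus (132 ± 8.09 against 90.7 ± 4.2 CPM), while Bmpr1b was higher in brain (29.5 ± 1.13 against 2.10 ± 0.538 CPM) and Bmpr2 was higher in brain by -0.93 ± 0.07. Smad1 and Smad5 were higher in uterus (1.75 ± 0.06 and 1.79 ± 0.06), while Smad9, the third carrier of BMP signals, was higher in brain (-3.73 ± 0.16).

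The BMP inhibitors and the Id genes, which are direct BMP targets, were also split, with 7 of 13 called higher in uterus and 6 higher in brain and a median of 0.72. All tested genes were split in a like way, with 43.5% called toward uterus and 43.6% toward brain. Fst, which encodes an activin and BMP binding protein, stood at 89.2 ± 22.3 CPM in uterus against 2.72 ± 0.171 (5.03 ± 0.19), and Fstl1 at 716 ± 126 against 52.8 ± 2.47 (3.76 ± 0.13). Grem1, which encodes a secreted BMP antagonist, was higher in brain (-2.88 ± 0.50, and -2.27 with uterus libraries 1 and 3 only). Id1 and Id3 were higher in uterus (1.86 ± 0.08 and 1.74 ± 0.09), and Id2 and Id4 higher in brain (-0.81 ± 0.08 and -1.43 ± 0.08). Nog, the noggin gene, was called higher in uterus by 0.72 ± 0.26 (edgeR, adjusted p = 0.0231) with 18.3, 14.4, 10.1 and 6.99 CPM in uterus libraries 1 to 4, the reverse of the Msx2 order. That call ended on leaving out any of uterus library 1 (0.49), uterus library 2 (0.65), brain library 1 (0.68) or brain library 3 (0.71) and with limma-voom (0.62).

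Wnt5a and the polarity genes are the set that loss of uterine Msx is known to alter. Of 18 tested Wnt, Ror and planar polarity genes, 14 were called higher in uterus and 2 higher in brain, with a median of 1.67. Of all tested genes, 43.5% were called toward uterus and 43.6% toward brain. Wnt5a held 204, 174, 185 and 321 CPM in uterus libraries 1 to 4. Library 4, the highest for Msx1 and Msx2, was also the highest for Wnt5a, but library 1, the lowest for Msx2, was the next for Wnt5a. The summed stroma markers were 2642, 2494, 2393 and 3215 CPM in the same libraries, also highest in library 4. Much of that peak was Col6a4, at 887 CPM in library 4 against 192 to 208 in the others. Dcn was also highest in library 4, while Hand2, Pdgfra and Vcan were lowest there. The part of stroma in the Wnt5a values was not tested. Its mean was 221 ± 67.6 CPM in uterus against 14.9 ± 1.28 in brain (3.89 ± 0.20, edgeR adjusted p = 2.2e-08). The Wnt5a receptor genes Ror2 (45.0 ± 9.07 CPM in uterus) and Ror1 (15.6 ± 2.33) were higher in uterus by 5.0 ± 0.19 and 1.34 ± 0.13. Sfrp4, a secreted Wnt modulator, and Wnt11 were higher by 6.11 ± 0.25 and 5.83 ± 0.16. Celsr1, a polarity cadherin, was higher by 3.41 ± 0.07, and Vangl1 by 2.01 ± 0.06. The polarity genes Vangl2 and Scrib rose less. Vangl2 held 25.6 to 31.4 CPM in uterus against 16.8 to 17.4 in brain, and Scrib 78.6 to 89.7 against 64.1 to 70.9. The 2 genes called higher in brain were Wnt4 (-0.47 ± 0.17) and Prickle1 (-0.38 ± 0.08), and neither call held under upper-quartile scaling (-0.21 and -0.13) or library sizes (-0.20 and -0.12). The Wnt4 call also ended on leaving out any of brain libraries 3 (-0.42) and 4 (-0.40) and uterus library 1 (-0.44), and with uterus libraries 1 and 3 only (-0.30). Wnt7a held 25.9 ± 6.95 CPM in uterus and 23.8 ± 2.86 in brain and passed only without uterus library 2 (0.30, also with uterus libraries 1 and 3 only). Wnt7b held 4.96, 32.4, 9.23 and 4.29 CPM in uterus libraries 1 to 4 against 27.7 ± 2.93 in brain, and without uterus library 2 it was called higher in brain (-2.17, edgeR adjusted p = 2.2e-05), against -1.12 with it (adjusted p = 0.0825). Wnt7b was also called toward brain with limma-voom (-1.62), with the replicate block (-1.60) and with uterus libraries 1 and 3 only (-1.95).

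LIF from the glands and the hedgehog relay from epithelium to stroma are the other arms of implantation that border on Msx. Of 21 tested genes of this list, 18 were called higher in uterus and 2 (Hbegf and Ptgs2) higher in brain, with a median of 2.94. The shares over all tested genes were 43.5% toward uterus and 43.6% toward brain. Lif held 33.6, 39.9, 53.1 and 33.4 CPM in uterus libraries 1 to 4 and Ihh held 72.4, 55.2, 89.7 and 69.5, so each was highest in library 3 and not in library 4. The LIF receptor chains Lifr and Il6st were higher in uterus by 0.54 ± 0.10 and 2.74 ± 0.11, their signal carrier Stat3 by 2.09 ± 0.06 and the feedback inhibitor Socs3 by 3.91 ± 0.14. Gli1, a hedgehog target, was higher by 4.95 ± 0.09. Muc1, the epithelial mucin gene, held 26.0, 24.5, 26.4 and 26.6 CPM in the uteri, a narrow range, and was higher than in brain by 5.17 ± 0.10. Hand2, a stromal transcription factor gene, had 0 counts in brain and was at least 4239-fold higher in uterus. Hbegf, an EGF-type ligand, was higher in brain (-1.27 ± 0.08), and Ptgs2 was called toward brain by -0.87 ± 0.28, a call that ended under upper-quartile or library-size scaling (-0.61 in each) and without brain library 1 (-0.68). Klf15 did not pass, at 23.5 ± 4.39 CPM in uterus and 23.1 ± 1.43 in brain, and its sign turned with RLE scaling (-0.02), with DESeq2 (-0.02) and without brain library 1 or uterus library 2, while it was called toward uterus with upper-quartile scaling (0.28, edgeR adjusted p = 0.0495).

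Of 9 tested FGF ligands and receptors, a set of stromal and epithelial growth signals, 3 were called higher in uterus and 6 higher in brain, with a median of -1.04. For comparison, 43.5% of all tested genes were called toward uterus and 43.6% toward brain. Fgf2 and Fgfr2 were higher in uterus by 0.86 ± 0.11 and 0.81 ± 0.07. Fgfr3, Fgf1 and Fgf9 were higher in brain by -4.01 ± 0.07, -3.51 ± 0.16 and -2.18 ± 0.27.

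Proteins that bind MSX1 or modify chromatin with it form the last list, in which 4 of 14 tested genes were called higher in uterus and 8 higher in brain, with a median of -0.18. Calls over all tested genes were 43.5% toward uterus and 43.6% toward brain. The Polycomb subunit genes Ezh2, Eed and Suz12 were higher in uterus by 2.45 ± 0.08, 1.28 ± 0.06 and 0.35 ± 0.07, and Ezh2 held 58.0, 58.8, 50.7 and 60.1 CPM in the uteri against 10.4 ± 0.774 in brain. Sp1 was higher in uterus by 1.70 ± 0.06. Pax3 and Pax7, paired-box genes, had 0 counts in uterus and 340 and 309 in brain, at least 112-fold and 102-fold higher in brain. Lhx2, a LIM homeobox gene of the forebrain, was higher in brain by -6.64 ± 0.26, and by -7.37 with uterus libraries 1 and 3 only. Pias1, which encodes a SUMO ligase that binds MSX1, was higher in brain by -0.52 ± 0.06. Tbp, Taf1 and Crebbp are among the 8 genes called higher in brain, by small differences (-0.20, -0.21 and -0.16). These turned in sign under upper-quartile scaling (0.05, 0.04 and 0.10) and under library sizes (0.05, 0.05 and 0.10). For them no direction is therefore given. Under each of those scalings 5 genes of the list were called higher in brain. Ehmt2 (-0.08), whose sign also turned under those scalings (0.18 in each) and which was called toward brain without brain library 1 (-0.11), and the linker histone gene Hist1h1b (0.22 against 0.14 CPM) did not pass.

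**Figure D4:**
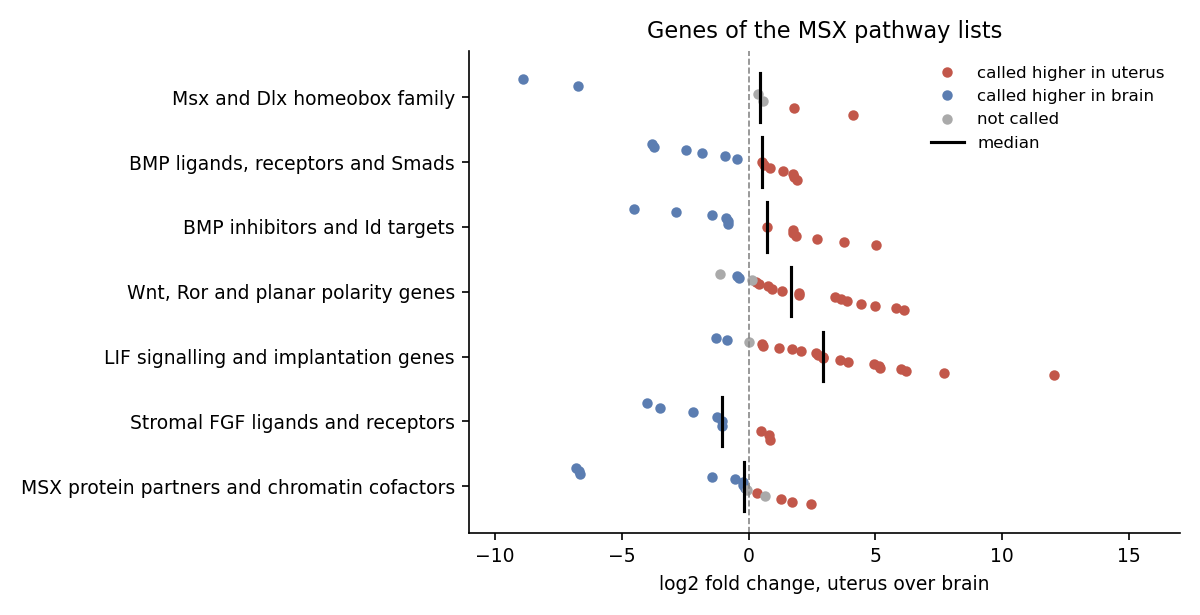
Log2 fold change, uterus over brain, of the tested genes in each list of the MSX pathway; each point is 1 gene, coloured by its call in edgeR, black bars are list medians, and genes with 0 counts in an organ are drawn at their bounds. The median is highest for LIF signalling and implantation genes at 2.94 and lowest for FGF genes at -1.04, while the lists of BMP genes hold calls on both sides of 0.

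The genes whose pattern was most like each member were ranked by the root mean square difference of log2 CPM over the 8 libraries, after centring each gene on its own mean. For Msx1 they were Ppl, Mrvi1, Col18a1, Ripply3 and Ahnak, at 0.10 to 0.15, against a median of 2.07 over all tested genes. Ppl, the gene of the epithelial junction protein periplakin, held 40.1, 36.0, 40.5 and 49.9 CPM in uterus libraries 1 to 4 and 1.73 to 2.54 in brain, with a log2 fold change of 4.21 ± 0.14. For Msx2 the differences were larger, at 0.31 to 0.32 for Oxtr, Piwil2, Zfp182, Naaladl2 and Asb4, against a median of 0.80. Msx2 had only 41 to 133 counts per library, and the part of counting error in these differences was not tested. Oxtr, the oxytocin receptor gene, held 7.95, 8.23, 9.46 and 13.3 CPM in uterus libraries 1 to 4 and 7.34 to 9.34 in brain (0.27 ± 0.17, edgeR adjusted p = 0.168). Of these 5, Naaladl2 and Asb4 were called higher in uterus (0.59 ± 0.18 and 0.75 ± 0.20), the former not with uterus libraries 1 and 3 only (0.33). Oxtr, Piwil2 and Zfp182, which did not pass, did so under upper-quartile or library-size scaling (0.52 to 0.82). Piwil2 and Zfp182 also passed without uterus library 1 (0.72 and 0.52), and Piwil2 without brain library 2 (0.73) or uterus library 2 (0.69). The gene with the smallest difference in each case was chosen for its likeness, so its pattern is a description.

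The organ difference of Msx1 held under every alternative tried. Over 17 alternative settings its log2 fold change ran from 4.04 to 4.38, and it passed the test in all 17. That of Msx2 ran from 0.31 to 0.82 and passed in 3 of the 17.

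**Figure D5:**
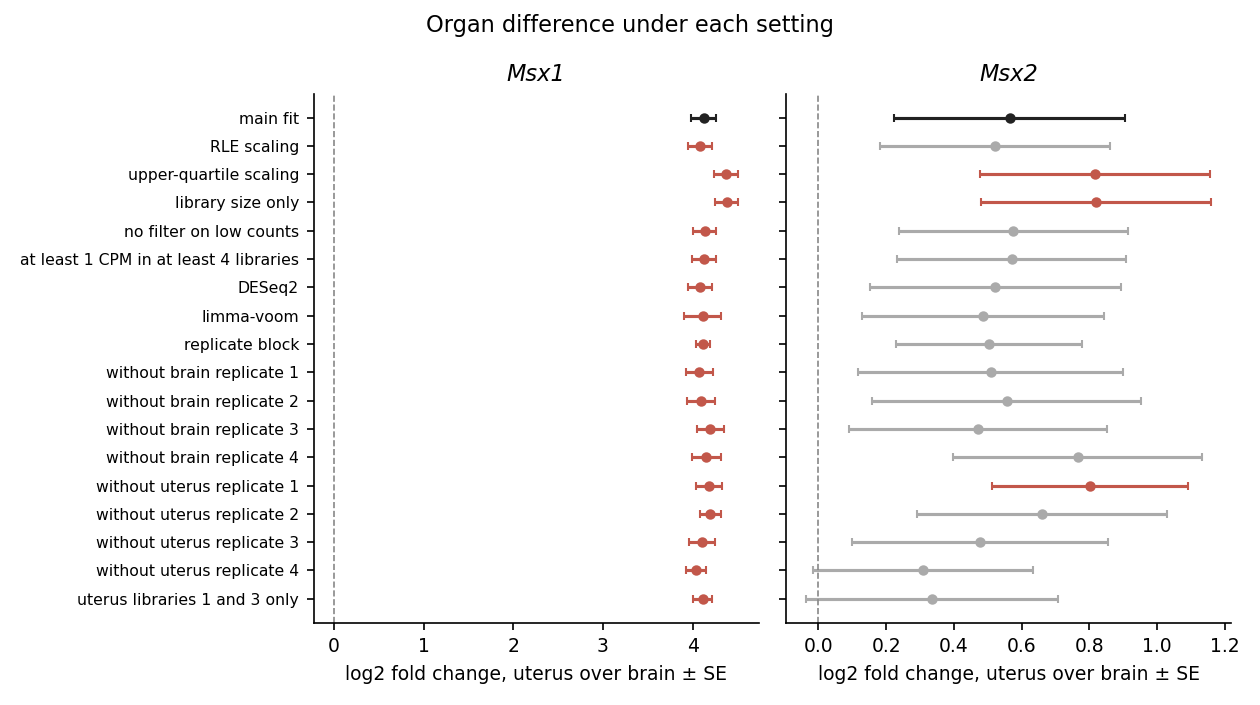
Log2 fold change, uterus over brain ± SE, of Msx1 (left) and Msx2 (right) under the reported setting (black) and 17 alternatives, in red where the adjusted p was under 0.05 and grey where it was not; the x axes differ between panels. Msx1 stays between 4.04 and 4.38, and Msx2 between 0.31 and 0.82 with 3 settings in red.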

How the data were processed

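Per the labels' protocols, whole brain and whole uterus of pregnant mice were extracted with a column kit and made into stranded, ribosomal RNA-depleted libraries. Per the submitters' processing notes, the authors used FastQC, HISAT2 2.0.3, featureCounts and edgeR on GRCm38.p5. Which annotation release and strand setting were used, and how multiply mapped reads were handled, is not given in the sources used here. Raw counts without normalization stand in the table deposited by the authors, for 19884 genes, 894 of them at 0 in all libraries. Of their identifiers, 19774 were found in GENCODE M21, whose build has the same chromosomes, and it gave coordinates and lengths.

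Analyses used R 4.3.3, edgeR 4.0.16, limma 3.58.1 and DESeq2 1.42.0. After filterByExpr by organ, 16074 genes were fitted with TMM scaling and tested with edgeR's quasi-likelihood method (two-sided), and p-values were adjusted over all of them by Benjamini and Hochberg's procedure. Adjusted p-values in the text come from that test unless another tool is named. SE was derived from the fold change without shrinkage and its F statistic. The ratio test added 0.5 to counts. Intervals are exact Poisson 95% intervals. Such intervals, and limits of 3 counts, cover counting error only, since the reads carry no molecular identifiers.

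The members, lists and tests were chosen with earlier results of these data known. Named genes are the members, the Msx and Dlx family, the 3 called list members with the largest change, up to 2 against the list median and up to 3 that did not pass, the 5 most similar genes at 1 CPM or more in uterus, and the 2 nearest table genes on each side. Some items that this rule names are not reported here. Other list members named beside them were chosen for their roles after their values were seen. H1f5 matched no symbol, and Hist1h1b stands for that histone. Replicate numbers are not stated to mark a shared mouse, so the reported fit has no block. The fitting procedure was tested on simulated data.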

Additional observations from a re-analysis of the deposited data

Results flagged for a closer look

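Among 111 groups of 4 libraries examined for the members, the family, the genes named from the lists, the neighbours and the similar genes (groups with under 30 counts left out), 9 had 1 library far from the other 3. Chance marks about 1 group in 20. None was Msx1, Msx2 or their ratio. In uterus library 4, Fgfr3 stood at 8.69 CPM against 10.04 to 10.1 in the others, and Fgf9 at 2.52 CPM against 6.64 to 7.4. In uterus library 2, Fgf2 stood at 15.8 CPM against 20.7 to 21.2, Mrvi1 at 108 CPM against 130.4 to 134 and Col18a1 at 499 CPM against 573 to 586. In uterus library 1, Zfp182 stood at 17.9 CPM against 29.2 to 31.3. In brain library 1, Dlx6 stood at 7.93 CPM against 6.17 to 6.28 and Ehmt2 at 158 CPM against 181 to 182, and in brain library 2, Piwil2 stood at 3.0 CPM against 2.01 to 2.18.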

How the results depend on the processing

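Msx1 kept its call in each of 17 alternatives. Leaving out 1 library at a time gave 4.04 to 4.2 for Msx1, 0.31 to 0.80 for Msx2, 3.39 to 3.81 for the log2 difference of the Msx1 to Msx2 ratio, 5.36 to 5.75 for the uterine ratio per length, and 13818 to 14044 genes called. Msx2 rose past the threshold with upper-quartile scaling (0.82) and with library sizes (0.82). The number of called genes ran from 13133 to 14781 over all alternatives. The lowest was out of 14882 genes tested, with at least 1 CPM required in at least 4 libraries. The highest was out of 18990 genes tested, with no filter on low counts. For the replicate number as a block, same-numbered libraries had deviations correlated at -0.051 to 0.081, and 2 of 4 brain and 2 of 4 uterus libraries correlated best with their own number. Correlations this weak between 2 organs cannot decide whether equal numbers mark the same mouse. The replicate block left Msx1 at 4.12 and Msx2 at 0.50. With it the ratio difference stayed at 3.64 with an exact sign-flip p of 0.125, the smallest for 4 pairs, and with uterus libraries 1 and 3 only, chosen after seeing the data because gland genes of the other uteri stood apart, it was 3.87 with an exact permutation p of 0.0667, the smallest that 2 against 4 allows. With both upper-quartile scaling and library sizes, the Msx and Dlx family had 4 genes called higher in uterus, the Wnt list 0 higher in brain, the LIF list 1 higher in brain and the partner list 5 higher in brain. With no filter the family had 5 higher in brain, since Msx3, Dlx3 and Dlx4 entered the test. Leaving out 1 library gave 2 to 4 family genes higher in uterus, 1 to 3 Wnt genes higher in brain and 1 to 2 LIF list genes higher in brain. Signs turned for Klf15 with RLE (-0.017), DESeq2 (-0.017), uterus libraries 1 and 3 only (-0.11) and in leaving out libraries (-0.11 to 0.11), for Ehmt2 with upper-quartile scaling (0.18) and library sizes (0.18), for Tbp (0.051 and 0.053), Taf1 (0.045 and 0.046) and Crebbp (0.10 and 0.10) with the same settings, and for Hist1h1b with limma-voom (-0.023). With a prior count of 0.5, the 5 genes most like Msx2 shared 3 with the reported 5, and 5 of 5 were shared for Msx1. At 41 to 133 counts per library, depth limits Msx2 more than Msx1.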
